A study of Sus scrofa with 8 samples.

Results

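PDGFRL, the collagen genes COL1A1, COL1A2 and COL3A1, the proteoglycan genes DCN and LUM, and the glycoprotein genes SPARC and FN1 were followed in pig liver as a group of connective tissue genes. Their members were all probe sets to which the array annotation gives exactly 1 of these 8 symbols. This gave 14 probe sets, out of 24123 on the array, for 7 of the 8 genes; COL1A1 had no probe set under its symbol and was not analysed here. A probe set is a group of short DNA probes read together as 1 intensity, and several probe sets can report on 1 gene.

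Liver RNA came from 4 Korean native pigs (KNP), aged 7 months, and 4 Yorkshire pigs (YS), aged 6 months, with 1 Affymetrix porcine array per animal. The animals are labelled as biological replicates, were raised under the same conditions, and were all sampled at the tip of the largest lobe. Age follows breed, so each difference below is one of breed and age together. The study compared the breeds to find genes that differ between their livers.

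In the liver most collagen, decorin and lumican is made by hepatic stellate cells, the vitamin A storing cells that lie between hepatocytes and endothelium, and by the fibroblasts of the portal tracts. When stellate cells are activated they turn into contractile myofibroblasts and deposit collagen, which is how liver fibrosis builds up, and platelet-derived growth factor is a strong stimulus for them to divide. PDGFRL encodes a protein that resembles the ligand-binding part of the platelet-derived growth factor receptor but is not itself that receptor. FN1 differs from the rest, because hepatocytes make the soluble fibronectin of blood plasma while connective tissue cells make the fibronectin of the matrix.

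The arrays had the marks of liver: ALB, albumin, lay between 50730 and 58503 in KNP and between 83646 and 95919 in YS. The array medians ran from 153 to 170 in KNP and from 154 to 180 in YS. Bacterial transcripts added before hybridization read, as geometric means, 2747 to 4230 on KNP arrays and 5167 to 7651 on YS arrays (exact permutation p = 0.0286, two-sided, n = 4 per breed, the smallest p that 4 against 4 allows). For actin, the control probe set at the 3' end over that at the 5' end, a measure that grows with RNA breakdown, gave 2.68 to 6.45 in KNP and 8.39 to 11.8 in YS (exact p = 0.0286 by permutation, with 4 livers in each breed). The same ratio for GAPDH gave 2.30 to 3.77 in KNP and 3.07 to 4.05 in YS, with overlap (exact permutation p = 0.314, n = 4 per breed). The bacterial transcripts and actin thus set the breeds apart, while GAPDH did not. Array handling therefore cannot be told apart from breed, nor can RNA state as far as actin measures it. Precision is limited by having 4 arrays in each breed.

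Probe sets were tested if they lay above the lowest 40% by mean level over the 8 arrays, which kept 8 of the 14 member probe sets, for 6 genes. Of these 8, 2 were called lower in KNP and 0 higher at an adjusted p under 0.05 in limma, 1 of PDGFRL and 1 of FN1. Among all 14399 probe sets tested, 1.03% were called in either direction, 0.424% higher and 0.611% lower. After quantile normalization 0 of the 8 were called, against 0.0972% of all tested, and without the filter 0 of the 14, against 0.146% of 23999. The 4 KNP values lay entirely below the 4 YS values in 3 of the 8, both tested probe sets of PDGFRL and 1 of FN1, against 5.67% of all probe sets tested, while 9.68% were without overlap in either direction. The collagens, DCN and SPARC overlapped between the breeds. Intensities are on the linear scale as deposited, and differences are KNP minus YS of log2(intensity + 16) with their standard error (SE). Since whole liver was measured, fewer cells of a type and less RNA per cell cannot be told apart for any of these genes.

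**Figure D1:**
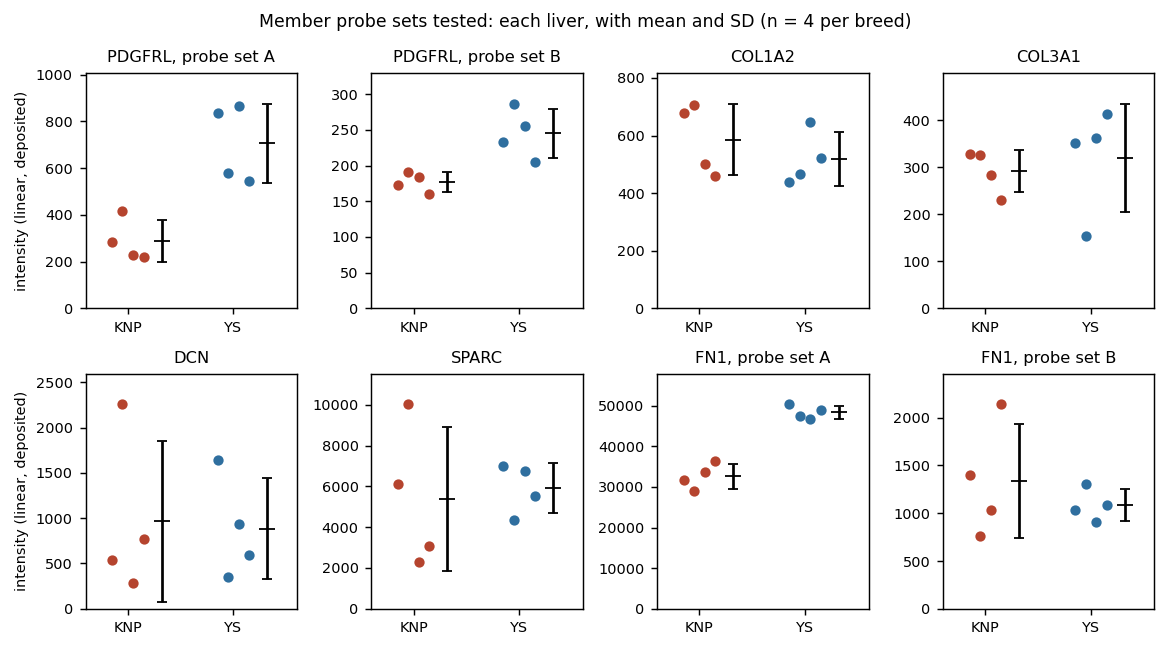
Intensity (linear scale, y axis from 0) of the 8 tested member probe sets in each liver, KNP in red and YS in blue, replicates 1 to 4 from left to right, with the mean and SD at the right of each group (n = 4 per breed). The groups are apart in both panels of PDGFRL and in probe set A of FN1, and overlap in the other 5.

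PDGFRL, the receptor-like gene, was lower in KNP. Its probe set A (Ssc.1161.1.A1_at) read 286, 416, 229 and 222 in KNP replicates 1 to 4, against 836, 579, 867 and 544 in YS replicates 1 to 4. The highest KNP liver, replicate 2, stayed below the lowest YS liver, replicate 4. The means were 288 ± 89.8 in KNP and 707 ± 168 in YS (SD, n = 4 per breed). The log2 difference was −1.26 (SE 0.24, 95% confidence interval −1.79 to −0.74, limma adjusted p = 0.0390), which puts the KNP level at 0.417 of the YS level.

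Probe set B of PDGFRL (Ssc.1161.2.S1_at) read 173, 191, 184 and 160 in KNP, against 233, 286, 256 and 204 in YS. Again no KNP liver reached the lowest YS liver, but the gap was narrower. The log2 difference was −0.43 (SE 0.19, 95% confidence interval −0.84 to −0.02) and did not pass over all probe sets (limma adjusted p = 0.310). Within each liver, the log2 level of A minus that of B was 0.62 ± 0.34 in KNP and 1.45 ± 0.37 in YS (SD, n = 4 per breed), a difference of −0.83 between the probe sets in how far they moved (exact permutation p = 0.0571, adjusted p = 0.0571 over the 2 genes compared in this way). The probe sets of PDGFRL shared a direction and gave different sizes.

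The call of PDGFRL stood close to the threshold. It was lost after quantile normalization (−1.29, adjusted p = 0.0733), median centring (−1.19, 0.0542) or cyclic loess (−1.29, 0.0714), without the filter on dim probe sets (−1.26, 0.0696), without the intensity trend (−1.26, 0.0879), with a replicate block (−1.26, 0.110) and with the mean of both probe sets (−0.84, 0.0741), and on leaving out KNP replicate 1, 3 or 4 or any of the 4 YS animals, where the difference lay between −1.37 and −1.15 and the adjusted p between 0.0723 and 0.121.

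FN1, fibronectin, which links cells to collagen and is also a plasma protein, was lower in KNP by its probe set A (Ssc.16743.1.S1_at). This probe set read 31655, 29093, 33606 and 36326 in KNP, against 50371, 47419, 46759 and 48850 in YS. The 4 livers of each breed lay close together and the breeds did not overlap. The means were 32670 ± 3059 in KNP and 48350 ± 1606 in YS (SD, n = 4 per breed), with a log2 difference of −0.57 (SE 0.11, 95% confidence interval −0.80 to −0.33, limma adjusted p = 0.0384).

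This difference depended on how the arrays were scaled. After quantile normalization, which gives every array the same distribution, it was −0.05 (adjusted p = 0.831), and with cyclic loess it was −0.18 (adjusted p = 0.445). FN1 probe set A belongs to the 68 tested probe sets with a mean log2 level above 15, of which 68 lay lower in KNP and 37 were called lower, with a median of −0.58, which was −0.03 after quantile normalization. PDGFRL probe set A lay in the range from 8 to 9, where the median of 3579 probe sets was 0.02 and 0.112% were called lower. The part that array scaling has in the FN1 difference was not tested further.

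FN1 probe set A also moved with the brighter markers of hepatocytes. Of 12 hepatocyte markers 11 had a probe set and were tested, and 7 were called lower in KNP and 0 higher. Over all 5423 genes 1.36% were called. The 7 called had KNP means of 30060 or more. TTR (−0.52, limma adjusted p = 0.0678) and CPS1 (−0.36, 0.186) were not called. Neither were the dimmer ARG1 (−0.23, 0.629) and TAT (0.02, 0.989), which overlapped between the breeds. The summed intensity of the 11 markers ran from 357940 to 419400 in KNP and from 563690 to 590570 in YS. No list of another cell type had a marker called. The hepatocyte list had a mean log2 level lower by 0.52 in KNP (exact permutation p = 0.0286, adjusted p = 0.229 over 8 marker lists). This p was the smallest possible, and with no other list at it the adjustment over 8 lists could not be passed. The difference of the hepatocyte list was −0.02 after quantile normalization. The part of the hepatocyte genes in the FN1 difference was not tested.

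Probe set B of FN1 (Ssc.5580.1.S1_at) read 1402, 761, 1038 and 2142 in KNP, against 1033, 1308, 907 and 1086 in YS. The breeds overlapped, and the log2 difference was 0.21 (SE 0.28, 95% confidence interval −0.40 to 0.82, limma adjusted p = 0.770). Within each liver, A minus B was 4.69 ± 0.52 in KNP and 5.47 ± 0.22 in YS, which differed by −0.78 (exact permutation p = 0.0571, adjusted p = 0.0571, n = 4 per breed). The probe sets of FN1 therefore gave opposite signs, and with their mean, over all 4 probe sets of the gene, the difference was −0.06 (adjusted p = 0.935). Of the FN1 result, a call was kept on leaving out KNP replicate 4 (−0.62, adjusted p = 0.0366), and lost on leaving out any other single animal, with differences between −0.59 and −0.52 and adjusted p between 0.0575 and 0.121. It was also lost with median centring (−0.49, adjusted p = 0.0632), and, at a difference of −0.57, without the filter (0.157), without the trend (0.140) and with the replicate block (0.119).

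**Figure D2:**
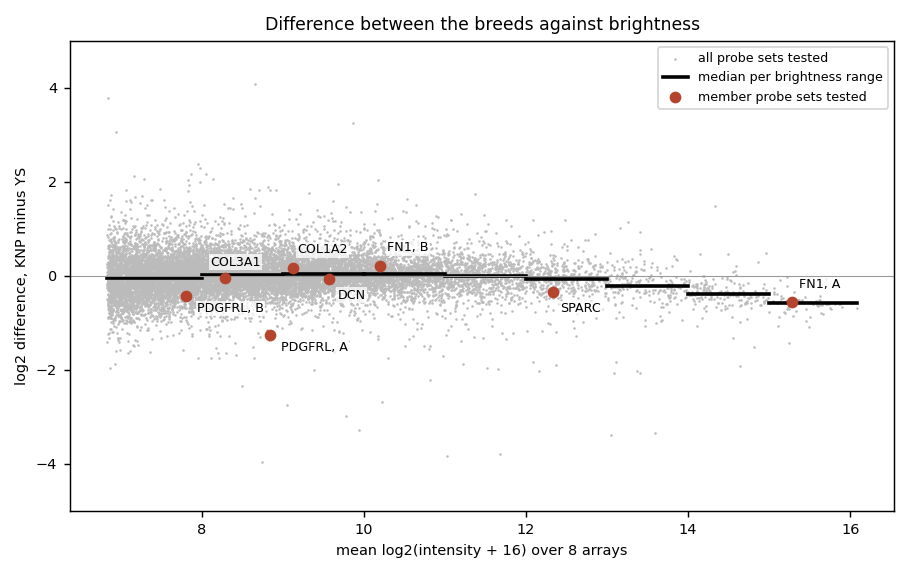
Log2 difference, KNP minus YS (y axis), against the mean log2(intensity + 16) over the 8 arrays (x axis) for the 14399 probe sets tested (grey), with the median per brightness range as black bars and the 8 tested member probe sets in red. Probe set A of FN1, at −0.57, lies close to the median of the brightest range at −0.58, while probe set A of PDGFRL lies at −1.26 in a range whose median is 0.02.

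The fibrillar collagens COL1A2 and COL3A1 overlapped between the breeds, and neither passed the test. COL1A2, the second chain of type I collagen, the main collagen of scar tissue, read 678, 705, 502 and 458 in KNP, against 437, 466, 648 and 520 in YS (probe set Ssc.24975.1.S1_at). The groups overlapped, and KNP replicates 1 and 2 lay above all YS livers. The log2 difference was 0.16 (SE 0.20, 95% confidence interval −0.27 to 0.60, limma adjusted p = 0.740).

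COL3A1, which forms type III collagen, the fine reticular fibres of the liver, read 327, 325, 284 and 231 in KNP, against 351, 153, 362 and 413 in YS (probe set Ssc.10754.2.A1_at). YS replicate 2 stood below all other livers and the remaining YS livers above all KNP livers. The log2 difference was −0.05 (SE 0.28, 95% confidence interval −0.68 to 0.57, limma adjusted p = 0.95), and −0.36 without YS replicate 2 (adjusted p = 0.472). The sign of COL3A1 turned to 0.02 with median centring.

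DCN, decorin, a small proteoglycan that binds collagen fibrils and holds transforming growth factor beta, varied more between animals than between breeds. It read 539, 2258, 285 and 774 in KNP, against 1640, 354, 936 and 598 in YS (probe set Ssc.10245.2.A1_a_at). The highest and the lowest of all 8 livers were both KNP, replicates 2 and 3, with a ratio of 7.93 between them, while the ratio of highest to lowest was 4.63 in YS. The log2 difference between the breeds was −0.06 (SE 0.58, 95% confidence interval −1.34 to 1.21, limma adjusted p = 0.973). It was −0.60 without KNP replicate 2, 0.37 without KNP replicate 3 and 0.01 with median centring, none of them called.

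SPARC, osteonectin, a secreted collagen-binding protein that regulates how cells attach to matrix, showed the same order of the KNP livers at its ends. It read 6123, 10032, 2273 and 3098 in KNP, against 7002, 4361, 6759 and 5553 in YS (probe set Ssc.1458.3.A1_a_at). KNP replicate 2 was the highest liver and KNP replicate 3 the lowest, with all YS livers between KNP replicates 2 and 4. The log2 difference was −0.35 (SE 0.39, 95% confidence interval −1.20 to 0.51, limma adjusted p = 0.716), −0.73 without KNP replicate 2 and −0.02 without KNP replicate 3.

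**Figure D3:**
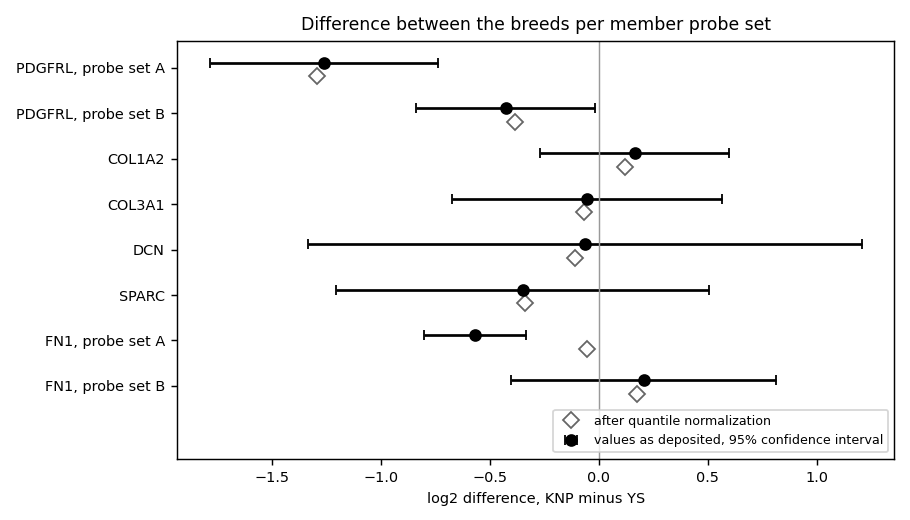
Log2 difference, KNP minus YS (x axis), of each tested member probe set, as filled circles with the 95% confidence interval for the values as deposited and as open diamonds after quantile normalization (n = 4 per breed). The intervals of both PDGFRL probe sets and of FN1 probe set A lie below 0, and of these FN1 moves to −0.05 after quantile normalization while PDGFRL probe set A stays at −1.29.

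The 6 remaining member probe sets were too dim to be tested. LUM, lumican, the close relative of decorin that also sets fibril thickness, had only such a probe set, at 318, 118, 34.7 and 153 in KNP, against 139, 63.2, 50.3 and 35.9 in YS (Ssc.1128.1.S1_at). KNP replicate 1 was the highest liver and KNP replicate 3 the lowest, and the groups overlapped. The second COL1A2 probe set ran from 32.5 to 62.1 in KNP and from 40.7 to 96.6 in YS, the second SPARC probe set from 7.35 to 48.0 in KNP and from 11.3 to 33.7 in YS, and the second DCN probe set from 0.953 to 8.44 in KNP and from 2.02 to 13.9 in YS. The 2 dim FN1 probe sets ran from 47.3 to 122 in KNP and from 17.5 to 135 in YS, and from 36.1 to 76.3 in KNP and from 44.4 to 102 in YS. All of them overlapped between the breeds. When the filter was dropped their differences were 0.80 for LUM, −0.52 for COL1A2, 0.08 for SPARC, −0.14 for DCN, and 0.42 and −0.27 for FN1, with limma adjusted p between 0.560 and 0.953. The sign of the dim COL1A2 probe set was opposite to that of the brighter one.

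Whether PDGFRL differed from the other members in how far it moved was examined within each liver, as its log2 level minus that of each of the 5 other tested genes, although PDGFRL was already known to be lower when it was chosen. Against COL1A2 this value was −1.0 ± 0.20 in KNP and 0.42 ± 0.36 in YS, a difference of −1.43 (exact permutation p = 0.0286, adjusted p = 0.0714 over 5 pairs, n = 4 per breed). Against COL3A1 it was −0.05 ± 0.28 in KNP and 1.16 ± 0.59 in YS, a difference of −1.21 (exact permutation p = 0.0286, adjusted p = 0.0714). Neither pair of groups overlapped, in 4 of 4 livers per breed, but neither passed the adjustment. Their p of 0.0286 was the smallest possible, and with no other pair at it the adjustment over 5 pairs could not be passed. Against SPARC, DCN and FN1 the groups overlapped, with differences of −0.91, −1.20 and −0.69 (exact permutation p = 0.0571, 0.0857 and 0.0857, adjusted p = 0.0857 for each). A fall of PDGFRL apart from the rest of the matrix genes was therefore not shown by these tests at this number of animals.

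The genes whose profile over the 8 livers was most like that of PDGFRL were AKR1CL1, POSTN and FCN2, by the root mean square difference of log2 values centred on each gene's own mean. Among 5417 genes these differences were 0.32, 0.33 and 0.33, against a median of 0.76. The breed difference is part of this measure, so genes picked as near PDGFRL or FN1 tend to be lower in KNP as well. Their calls and lack of overlap are therefore no separate results. Over all 5423 genes 1.36% were called in either direction and 11% did not overlap. POSTN, periostin, a matrix protein of fibroblasts, averaged 3886 ± 1234 in KNP livers and 6321 ± 795 in YS livers without overlap, with a log2 difference of −0.75 (SE 0.22, limma adjusted p = 0.135). FCN2, a ficolin, a lectin of innate immunity, showed −1.03 (adjusted p = 0.0932) and AKR1CL1 −1.0 (adjusted p = 0.0665), both without overlap. For FN1 the nearest were RPS29, a ribosomal protein, and the apolipoproteins APOB and APOE, at 0.04, 0.06 and 0.06, all of them called lower in KNP. For SPARC they were LOC100524254, the basement membrane gene NID2 and MGST3, at 0.21, 0.26 and 0.26, and for DCN the matrix gene CCDC80, CYP2C42 and MTA3, at 0.45, 0.52 and 0.54. For COL1A2 they were JAK1, HEXA and SELENON, at 0.11 to 0.12, and for COL3A1 VCPIP1, POLR3GL and SDHAF2, at 0.16 to 0.18.

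Connective tissue genes beyond the members were read in 6 lists: collagen chains, other matrix proteins, enzymes that process collagen, enzymes that break matrix down with their inhibitors, signalling by platelet-derived and transforming growth factors, and matrix receptors. Of their 115 gene symbols 72 had a probe set and 56 were tested by their brightest one, and limma called 0 of them, against 1.36% of all 5423 genes read in this way. At an unadjusted p under 0.05 there were 7, 2 higher and 5 lower, which is 12.5% against 16.3% of all genes. Their median difference was 0.00, against −0.02 over all genes. In 5 of the 56 the breeds did not overlap, or 8.93%, against 11% of all genes.

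Of 18 other collagen chains 7 were tested, 2 with a positive and 5 with a negative difference, from −0.68 to 0.40 with a median of −0.06. COL5A2, which initiates collagen fibrils and is the direct neighbour of COL3A1 in the pig genome, averaged 99.3 ± 43.7 in KNP livers and 181 ± 111 in YS livers, with a log2 difference of −0.68 (SE 0.40, adjusted p = 0.466). COL2A1, the collagen of cartilage, showed 0.40 (adjusted p = 0.478) and COL4A2, a chain of basement membranes, −0.37 (adjusted p = 0.527).

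Of 29 other matrix proteins 15 were tested, 7 with a positive and 8 with a negative difference, from −1.22 to 1.08 with a median of −0.14. LAMB1, a laminin chain of basement membranes, came nearest to the threshold. It read 517, 526, 367 and 868 in KNP, against 1552, 1556, 1082 and 1047 in YS, without overlap (log2 −1.22, SE 0.25, limma adjusted p = 0.0509; −1.25 and 0.0792 after quantile normalization). Without KNP replicate 4, the highest KNP liver, LAMB1 was called at −1.44 (adjusted p = 0.0275), as was VTN at −0.52 (adjusted p = 0.0457). VTN, vitronectin, a plasma and matrix protein made by hepatocytes, averaged 43677 ± 5200 in KNP livers and 59060 ± 2319 in YS livers, a log2 difference of −0.44 (adjusted p = 0.0968), and turned to 0.17 after quantile normalization.

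Enzymes of collagen processing had a median of 0.06 over 8 tested of 17, led by the smallest p of CRTAP at −0.32, the cross-linking enzyme LOXL1 at −0.85 and the collagen chaperone SERPINH1 at 0.35, with adjusted p between 0.505 and 0.550. Genes of matrix breakdown had a median of 0.11 over 12 of 16. A2M, alpha-2-macroglobulin, a plasma protease inhibitor, averaged 41955 ± 4716 in KNP livers and 60434 ± 6844 in YS livers without overlap, a log2 difference of −0.53 (adjusted p = 0.0786; 0.07 after quantile normalization). TIMP2, an inhibitor of metalloproteinases, averaged 444 ± 47.3 in KNP livers and 333 ± 43.3 in YS livers, all KNP above all YS, a log2 difference of 0.40 (SE 0.17, adjusted p = 0.289), and CTSK, a collagen-degrading protease, showed −0.33 (adjusted p = 0.417).

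PDGFRB, the receptor for platelet-derived growth factor on stellate cells, read 1644, 2171, 1776 and 2128 in KNP, against 1230, 1535, 2208 and 2806 in YS. The YS livers spanned the KNP livers on both sides, and the log2 difference was 0.05 (SE 0.24, limma adjusted p = 0.945). Of 21 gene symbols of these signalling pathways 5 were tested, with a median of 0.18, and the smallest p belonged to SMAD4 (0.32, adjusted p = 0.351), TGFB1 (0.69, 0.471) and TGFBR1 (0.18, 0.672). Of 15 matrix receptors 9 were tested, with a median of −0.05, led by the integrin chains ITGB5 at 0.49 and ITGB1 at −0.19 and the syndecan SDC2 at −0.10, with adjusted p of 0.361, 0.611 and 0.833.

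Markers of stellate cells, smooth muscle and portal fibroblasts overlapped between the breeds in their summed levels, unlike those of hepatocytes given above. Of 13 hepatic stellate cell markers 6 had a probe set, 4 of them with a higher mean log2 level in KNP, and their summed intensity ran from 4828 to 6098 in KNP and from 3855 to 5647 in YS. Of the 5 tested, limma called 0, and 2 had an unadjusted p under 0.05. The difference in mean log2 level was 0.02 (exact permutation p = 0.943, adjusted p = 0.943 over 8 lists, n = 4 per breed). DES, desmin, the filament protein that marks stellate cells and muscle, read 147, 118, 132 and 123 in KNP, against 229, 212, 338 and 200 in YS, without overlap (log2 −0.81, adjusted p = 0.116). VIM, vimentin, showed 0.43 (adjusted p = 0.236).

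Myofibroblast and smooth muscle markers, 6 of 7 measured, summed to 2529 to 8476 in KNP and 5145 to 6703 in YS, with a difference of −0.07 in mean log2 level (exact permutation p = 0.83, adjusted p = 0.943). The 3 measured of 7 portal fibroblast markers summed to 768 to 1742 in KNP and 850 to 1090 in YS (0.08, exact permutation p = 0.629, adjusted p = 0.943), and the 8 measured of 10 endothelial markers to 4877 to 8670 in KNP and 5176 to 8084 in YS (0.05, exact permutation p = 0.743, adjusted p = 0.943). Macrophage markers (7 of 10), bile duct markers (4 of 7) and mesothelial markers (3 of 6) differed by 0.28, 0.28 and −0.37, with exact permutation p of 0.314, 0.229 and 0.0857 and adjusted p of 0.629, 0.610 and 0.343. Only 1 gene of the bile duct list, EPCAM, and 1 of the mesothelial list, KRT8, were bright enough to be tested. The mesothelial markers CALB2 and WT1 lay between 5.71 and 63.2 in all livers, so these 2 lists rest largely on dim probe sets. KRT8 read 4364 to 7114 in KNP and 4139 to 5887 in YS, and whether its signal came from mesothelial cells was not tested. Among the bile duct markers SOX9 stayed between 3.80 and 14.3 in KNP and between 4.36 and 11.5 in YS, near the bottom of the scale.

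Many matrix genes had the same KNP liver at the top or at the bottom. Over the members, other collagen chains and other matrix proteins together, 28 tested genes, KNP replicate 2 was the highest KNP liver in 19 and KNP replicate 3 the lowest in 15. Over all 5423 genes KNP replicate 2 was the highest in 26.3% and KNP replicate 3 the lowest in 23.9%, so these places were taken in 67.9% and 53.6% of the matrix genes. KNP replicate 4 was the lowest in a further 9. After quantile normalization the counts for replicates 2 and 3 were 19 and 16. Among the members COL1A2, DCN, PDGFRL and SPARC were highest in KNP replicate 2, while FN1 was lowest there. The lowest KNP liver was replicate 4 for PDGFRL, COL1A2 and COL3A1, and replicate 3 for DCN and SPARC only.

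Contractile genes had the same ends. KNP replicate 2 was the highest KNP liver in 5 of 6 myofibroblast and smooth muscle markers and KNP replicate 3 the lowest in 4. ACTA2, smooth muscle actin, read 4089, 4672, 917 and 1891 in KNP, against 4205, 2954, 3454 and 4137 in YS, and TAGLN, transgelin, 1454, 1850, 439 and 1149 in KNP, against 1041, 837, 670 and 784 in YS. Hepatocyte markers had other ends, with KNP replicate 2 the highest in 0 of 11 and the lowest in 4, or 3 and 5 after quantile normalization. In YS no liver was the highest in more than 11 of the 28 matrix genes.

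The spread within a breed was mostly wider in KNP, for matrix genes and for others. Among the 28 matrix genes the SD of log2 values was greater in KNP than in YS in 24, or 85.7%, against 62.4% of all genes, with a median SD of 0.50 in KNP and 0.26 in YS. The 6 tested members had medians of 0.35 in KNP and 0.33 in YS, close to each other, although KNP was the wider breed in 5 of the 6. The 15 other matrix proteins had medians of 0.67 in KNP and 0.25 in YS, with KNP wider in all 15. Among the 7 other collagen chains KNP was wider in only 4, or 57.1%, below the share of all genes. Their medians were 0.51 in KNP and 0.23 in YS. KNP was also the wider breed in 9 of 11 hepatocyte markers and in 5 of 6 myofibroblast and smooth muscle markers. Over all genes the median SD was 0.30 in KNP and 0.24 in YS. For NID2, a basement membrane protein, the KNP livers read 551, 873, 160 and 287, and the YS livers 463, 453, 400 and 402. The confidence interval of DCN, −1.34 to 1.21, takes in large differences in both directions, and that of SPARC, −1.20 to 0.51, reaches further on the lower side.

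**Figure D4:**
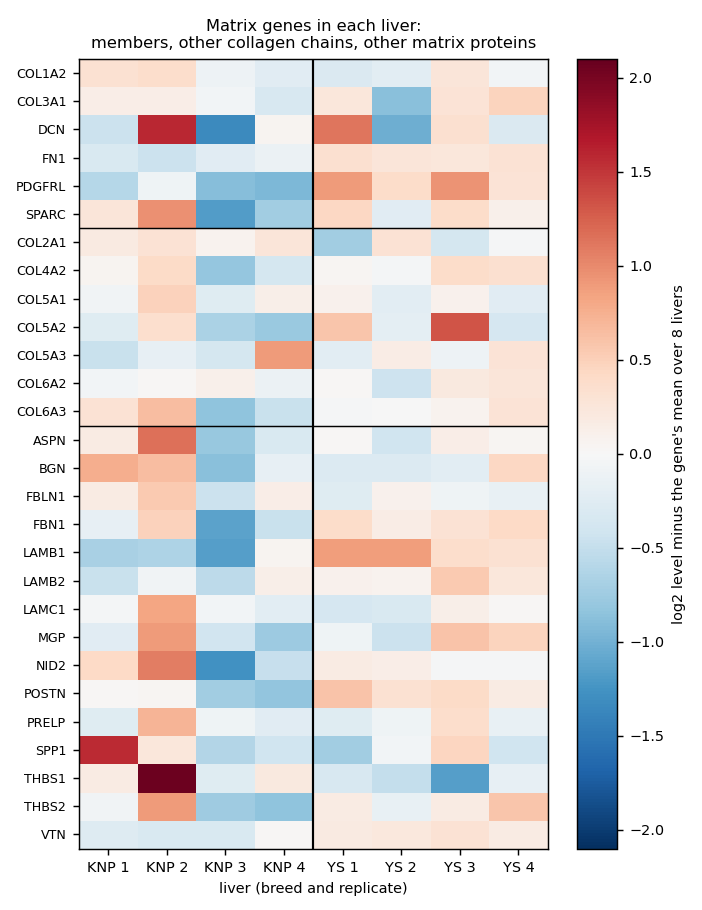
Level of each of 28 tested matrix genes in each liver, as log2(intensity + 16) minus the gene's mean over the 8 livers (colour scale in log2 units, red higher), KNP livers left of the line and YS livers right, with members, other collagen chains and other matrix proteins from top to bottom. KNP replicate 2 holds the highest KNP value in 19 rows and KNP replicate 3 the lowest in 15, and PDGFRL, FN1, LAMB1, POSTN and VTN are lower in every KNP liver than in any YS liver.

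DCN and LUM lie next to each other in the pig genome, as do COL3A1 and COL5A2, according to the RefSeq gene table for Sscrofa11.1. DCN showed −0.06, and LUM, below the filter, 0.80 without it (adjusted p = 0.567). Neither passed, and the sign of DCN was not stable, as given above. The neighbours of the other members that could be read, BET1 and CASD1 beside COL1A2, BTG1 beside DCN, ATOX1 beside SPARC and ATIC beside FN1, had differences from −0.04 to 0.48, and none of them was called (adjusted p between 0.496 and 0.990).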

How the data were processed

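The authors deposited 1 intensity per probe set and array on a linear scale, and per the submitters' processing notes GCOS 1.3 was used; no source used here names the signal algorithm or background step. The mean between percentiles 2 and 98 was 499.8 on each array, so the deposited intensities carry a scaling per array. Probe sets were named from the array annotation (1 symbol only), and 124 controls were set aside. Values were taken as log2(intensity + 16) without further scaling, since the array medians differed by 0.22, under a limit of 0.5. Of 23999 probe sets the lower 40% by mean were left out, and 14399 were tested with limma 3.58.1 in R 4.3.3 (lmFit, eBayes with intensity trend, breed as the only term, two-sided, Benjamini-Hochberg over all tested, threshold 0.05). Where a gene has several probe sets, A is the brighter and B the dimmer tested one, and lists use the brightest. Within-liver comparisons and marker lists used two-sided exact permutation tests over the 8 arrays. The fit was tested on simulated data.

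All member probe sets are named. From each list the genes past the threshold are named, or up to 3 with the smallest p, and for each member the 3 most similar profiles; PDGFRB, NID2, ACTA2, TAGLN, DES, VIM, SOX9, the genes lying next to members and the 2 genes called without KNP replicate 4 were chosen after their values were seen. The within-liver comparisons, animal orders and spreads were also added then. Members and lists were chosen with earlier results of these data known. The alternatives tried changed the pseudocount (1 or 64), the scaling (quantile, median centring, cyclic loess), the filter (none, or 60% left out) and the fit (no trend, weighted arrays, replicate number as a block). Others dropped 1 animal at a time or averaged the probe sets per gene.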

Additional observations from a re-analysis of the deposited data

Results flagged for a closer look

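COL3A1 in YS replicate 2 read 153, against 351 to 413 in the other YS livers. On the log2 scale used for the differences, the gap was 0.830 of the range of the 4 animals. This was just above the critical value for an outlying value among 4. On the linear intensities the same ratio lies below that value, so the flag depends on the scale. Over the 28 groups of 4 examined (14 member probe sets in 2 breeds), chance alone flags about 1 group in 20.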

How the results depend on the processing

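Calls over all probe sets, 149 on the values as deposited, numbered 14 after quantile normalization, 95 with median centring, 14 with cyclic loess, 35 without the filter, 13 without the trend and 8 with the replicate block, and 8 to 119 on leaving out 1 animal. The 2 member calls became 0 under each of those 6 settings and 0 to 1 on leaving out 1 animal, and stayed 2 with a pseudocount of 1 or 64, the lower 60% left out or array weights. PDGFRL showed −1.29, −1.19, −1.29, −1.26, −1.26 and −1.26 under those 6 settings, −0.84 with the mean of its probe sets and −1.44 to −1.15 on leaving out 1 animal, all negative. Signs of uncalled members turned: COL1A2 to −0.18 with the mean of its probe sets, COL3A1 to 0.021 and DCN to 0.011 with median centring, and on leaving out 1 animal FN1 probe set B ranged from −0.053 to 0.44, COL3A1 from −0.36 to 0.091 and DCN from −0.60 to 0.37. The myofibroblast and smooth muscle list turned to 0.0100 with median centring. The causes were not tested. The replicate numbers name different animals: deviations of same-numbered animals correlated at −0.02, 0.01, −0.01 and 0.05, and 0 of the 8 matched best with their own number, so the block does not stand for a pairing. Dim probe sets, LUM among them, limit what can be said.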
